A study of Mus musculus with 16 samples.

Results

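The replication-dependent histone genes were described in microglia sorted from the brains of 16 mice, as the rows of the deposited gene table whose symbol marks a core or linker histone of the clustered families (H1f1 to H1f5, the numbered H2ac, H2bc, H3c and H4c genes, H4f16 and the older Hist1h names). The rule used names only and no measured value. It found 55 of the 20267 genes of the table: 5 linker histone H1 genes, 15 H2A, 14 H2B, 10 H3 and 11 H4 genes. All mice carried p38α (Mapk14) with loxP sites around its first exon, were on a C57BL/6J background, ate tamoxifen food for 4 weeks from 5 months of age and were used at 11 months. The 4 groups of 4 mice were wild type with p38α intact (WT p38+/+), wild type with microglial p38α knocked out (WT p38KO), APPswe/PS1dE9 transgenic with p38α intact (AD p38+/+) and APPswe/PS1dE9 transgenic with the knockout (AD p38KO). The knockout mice alone carried Cx3cr1-creERT2+/-, a tamoxifen-inducible Cre driven by the Cx3cr1 promoter that replaces 1 Cx3cr1 allele, and the p38+/+ mice had no Cre. Loss of p38α, the presence of Cre and the loss of 1 Cx3cr1 allele therefore cannot be told apart in any p38KO comparison. About 10000 live CD11b+ P2ry12+ cells were sorted from each mouse, and 1 RNA library was made from each.

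Replication-dependent histone genes supply the proteins that package newly copied DNA. They lie in clusters, mostly lack introns, and are transcribed mainly in S phase with the help of the coactivator Npat. Their mRNAs are the only animal mRNAs that usually end without a poly(A) tail: they end a few bases past a short stem-loop, which the stem-loop binding protein Slbp holds. H2A, H2B, H3 and H4 form the core particle on which DNA is wound, and H1 binds the DNA that links particles. Some of the same genes also give longer transcripts with a poly(A) tail, which have been described in cells that no longer divide. Adult microglia divide rarely.

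The stem-loop was looked for in the 150 bases after the stop codon of each gene's annotated transcript (GENCODE M21, GRCm38), with up to 3 differences from the commonest form allowed. It was found in 36 of the 55 genes, in 21 of them with the commonest letters, and was not found in 19. Of these 19, 11 left little or no sequence to search. They were Hist1h2al, a processed pseudogene among the H2A members with no annotated stop codon, and genes annotated to within 30 bases of the stop codon. The stem-loops of the genes on which the results turn are shown with the stem and loop in capitals and up to 5 bases on each side, read 5′ to 3′ on the strand of the gene. H2ac6 is at chr13:23683477-23683492, Hist1h2ap at chr13:21833029-21833044, H1f4 at chr13:23621782-23621797, H3c6 at chr13:23561903-23561918, H4f16 at chr6:136803998-136804013, H4c4 at chr13:23581950-23581965, Hist1h4n at chr13:21831798-21831813, H4c9 at chr13:22040966-22040981 and H4c14 at chr3:96262939-96262954. All 9 are on the minus strand except H4c4.
H2ac6: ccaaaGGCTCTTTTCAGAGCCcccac
Hist1h2ap: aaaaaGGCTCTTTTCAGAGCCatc
H1f4: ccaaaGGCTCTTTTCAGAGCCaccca
H3c6: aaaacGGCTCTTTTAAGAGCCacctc
H4f16: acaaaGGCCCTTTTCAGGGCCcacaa
H4c4: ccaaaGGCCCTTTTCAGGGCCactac
Hist1h4n: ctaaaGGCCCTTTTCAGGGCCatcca
H4c9: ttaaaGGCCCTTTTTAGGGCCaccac
H4c14: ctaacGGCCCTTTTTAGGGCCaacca
The 5 H4 genes shared a stem that differed from that of H2ac6, Hist1h2ap and H1f4, and Hist1h2ap, whose level differed least with genotype among these 9, held the same 16 letters as H2ac6.

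RefSeq promoters (GRCm38.p6, 250 bases before to 50 after the start) were matched to 48 of the 55 genes. The windows just before the start are shown for 4 genes that were lower in p38KO microglia, with capitals marking the CCAAT box, the TATAAA box, the octamer ATTTGCAT and the letters GGTCCG, each searched on both strands. None of the marked motifs overlap each other in these windows. The window of H2ac6 is chr13:23683960-23684209 and also holds the start of H2bc4 on the other strand, H4f16 is at chr6:136804432-136804531, H4c4 at chr13:23581468-23581567 on the plus strand, and H4c9 at chr13:22041363-22041462.
H2ac6: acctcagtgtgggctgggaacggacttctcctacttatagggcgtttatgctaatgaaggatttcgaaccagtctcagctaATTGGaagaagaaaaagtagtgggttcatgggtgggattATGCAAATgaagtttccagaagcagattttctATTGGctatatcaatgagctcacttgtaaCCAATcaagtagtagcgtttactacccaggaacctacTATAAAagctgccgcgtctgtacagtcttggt
H4f16: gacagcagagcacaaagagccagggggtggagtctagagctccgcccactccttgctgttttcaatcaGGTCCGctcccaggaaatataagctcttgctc
H4c4: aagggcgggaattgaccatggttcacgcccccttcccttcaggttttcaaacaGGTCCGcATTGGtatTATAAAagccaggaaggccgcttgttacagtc
H4c9: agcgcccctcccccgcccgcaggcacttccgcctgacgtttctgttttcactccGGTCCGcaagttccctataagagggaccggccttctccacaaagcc
CCAAT was in 41 of the 48 histone promoters (85.4%) and in 37.4% of all 32851 promoters of the same length, but in only 3 of the 10 H4 promoters. TATAAA was in 28 of 48 against 13.6% of all, and ATTTGCAT in 10 of 48, all H2A or H2B, against 1.74% of all. GGTCCG, which was added after the promoters had been read, was in 9 of the 10 H4 promoters, in 1 H2B and 1 H3 promoter, and in 8.25% of all promoters. These are matches of letters, and binding was not measured.

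Each library was sequenced to a depth at which 1 CPM (a count scaled to the library's assigned reads) stood for 12.3 to 16.4 reads (median 13.9), and 3 reads, used as the floor of detection, for 0.183 to 0.244 CPM. The gene total of Mapk14 differed little between genotypes (log2 fold change -0.14, p38KO against p38+/+), but its main coding transcript was at 47.1 to 82.6 CPM in the 8 p38+/+ libraries and at 0.0574 to 0.248 CPM in the 8 p38KO libraries, as the labels say. The 8 microglial markers summed to 54268 to 66534 CPM per library. Neuronal markers summed to at most 3.83 CPM and lymphocyte markers to at most 0.977 CPM, astrocyte markers to 133 to 270 CPM and oligodendrocyte markers to 82.5 to 144 CPM. Red blood cell markers reached 261 CPM in the AD p38KO group and 228 CPM in the WT p38KO group, against at most 9.69 CPM in p38+/+ libraries, with medians of 0.134 (p38+/+) and 12.8 CPM (p38KO) in WT mice and of 0.944 and 1.51 CPM in AD mice. The libraries of AD p38KO mice 4 and 1 stood apart, with 15470 and 16030 genes detected, and genes detected numbered 15470 to 16840 in AD p38KO mice against 16976 to 18040 in the 12 mice of the other groups. The part of these differences in the histone results was not tested, and the sums, the medians and the counts of called histone genes for p38KO against p38+/+ are also given without mice 1 and 4 of the AD p38KO group.

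Histone genes held a small share of the assigned reads. Whether the kit selected RNA with a poly(A) tail is not given, so their share of the cells' RNA is not known. The 55 genes summed to 185 to 781 CPM per library. At least 1 library was at or above the floor for every one of the 55 genes, and all 16 libraries were for 17 genes. Only 11 genes had a mean above 10 CPM. The share of the summed CPM, averaged over the 16 libraries, was 44.4% for H2A, 20.8% for H4, 19.4% for H1, 12.8% for H2B and 2.53% for H3. Per kilobase of annotated transcript, which sets genes of different length on one scale, the highest mean levels were those of Hist1h2ap (145 CPM per kb), H2ac7 (62.4), H2ac12 (51.0), H2ac18 (47.8), H4c4 (37.6) and H1f4 (28.7). H2ac8, H2bc4 and H4f16 followed at 12.9, 12.4 and 12.004 CPM per kb. On this scale the leading members were H2A genes, and no H3 gene was among these 9. By CPM alone the highest means were those of Hist1h2ap (69.7), H1f4 (55.4), H4c4 (42.8), H2ac7 (35.7) and H4f16 (34.4). The order per kilobase rests on the annotated lengths, which were 482 bases for Hist1h2ap and 572 for H2ac7. They were 1930 bases for H1f4, 1138 for H4c4 and 2863 for H4f16.

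Of the 55 genes, 26 reached 1 CPM in at least 4 libraries and were tested (4 H1, 8 H2A, 4 H2B, 3 H3 and 7 H4), and 29 did not, with means of at most 0.615 CPM. Among the 26, 3 genes (H1f5, H4c3 and Hist1h4n) reached 1 CPM in fewer than 4 p38KO libraries, and H1f5 did so in p38+/+ libraries too. Hist1h4n passed only through the p38+/+ mice, where it was higher, so counts over the 26 are given as a description. Over all 55 genes, the mean was lower in AD p38KO than in AD p38+/+ microglia for 44 genes, where 50.1% of all 20267 genes had the lower mean in AD p38KO. It was lower in WT p38KO than in WT p38+/+ microglia for 39 genes, where 47.3% of all genes were. Of the 29 untested genes, 21 and 18 were lower in these comparisons. In AD mice none of the 29 had groups that did not overlap, where 2.14% of the 6355 untested genes of the table did with p38KO lower and 0.472% with p38KO higher. In WT mice 2 did, named here after their values were seen: H3c1 with p38KO lower (0.598% of untested genes) and H2ac13 with p38KO higher (1.37%). H2ac13 was at 0.0018 CPM or less in WT p38+/+ mice, under the floor, and at 0.888, 0.553, 0.760 and 0.494 CPM in WT p38KO mice 1 to 4. In AD mice 1 to 4 it was at 0.755, 0.438, 0.00054 and 0.0055 CPM with p38α intact and at 0.0031, 0.171, 0.00017 and 3.1e-06 CPM in the knockout. Its coding sequence differs from that of H2ac7 at 5 positions, so its level is uncertain, and its lowest values are estimates of less than 1 read.

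The summed level of the 55 genes was lower in p38KO microglia in both WT and AD mice. It was 638, 437, 392 and 449 CPM in AD p38+/+ mice 1 to 4 and 210, 306, 322 and 185 CPM in AD p38KO mice 1 to 4. The means were 479 ± 108.7 and 256 ± 68.5 CPM (SD, n = 4), a difference of 46.6%, and the groups did not overlap. In WT mice 1 to 4 the sums were 781, 466, 720 and 324 CPM with p38α intact, and 426, 478, 315 and 207 CPM in the knockout. Their means were 572 ± 215 and 356 ± 120 CPM (SD, n = 4), 37.7% lower in p38KO, but the groups overlapped, since WT p38+/+ mouse 4 was below 2 of the 4 WT p38KO mice. Without AD p38KO mice 1 and 4 the AD p38KO mean was 0.656 of the AD p38+/+ mean, against 0.534 with them and 0.623 in WT mice, so whether AD or WT mice had the lower ratio turned. In male mice only it was 0.636 in AD and 0.519 in WT mice. No test is given for a sum over genes. As these are bulk samples, fewer cells with histone mRNA and less histone mRNA per cell cannot be told apart.

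**Figure D1:**
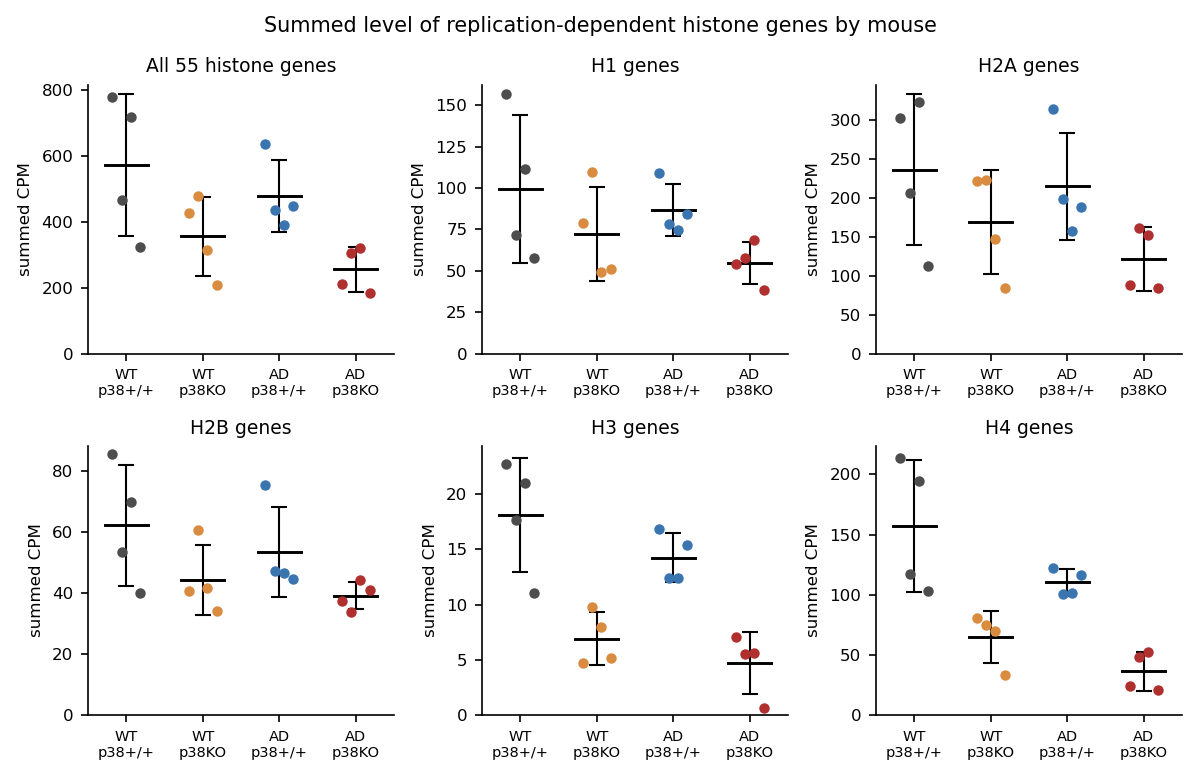
Summed CPM of the replication-dependent histone genes in each of the 16 libraries, by group and for each subfamily; points are mice and bars are group means ± SD (n = 4). For H4 the highest p38KO mouse is at 80.8 CPM and the lowest p38+/+ mouse at 100.7 CPM, while for H2A the groups overlap in both WT and AD mice.

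The subfamilies did not differ to the same degree. In WT mice 1 to 4, H4 summed to 214, 117, 194 and 103 CPM with p38α intact and to 80.8, 74.8, 69.9 and 33.1 CPM in the knockout. In AD mice 1 to 4 it summed to 123, 100.7, 101.1 and 117 CPM with p38α intact and to 24.2, 47.9, 52.2 and 20.98 CPM in the knockout. All 8 p38KO libraries lay below all 8 p38+/+ libraries. The p38KO mean was 58.9% lower in WT and 67.1% lower in AD mice. H3, the least abundant subfamily, was 61.9% lower in WT and 67.0% lower in AD mice, also with no overlap in either. H1 was 27.3% and 36.9% lower, H2A 28.5% and 43.6% lower, and H2B 28.8% and 26.9% lower in WT and AD mice. The groups of these 3 subfamilies overlapped in WT mice, and in AD mice only those of H2A did. Without AD p38KO mice 1 and 4, the AD differences were 54.6% for H4, 61.1% for H3, 27.1% for H1, 27.04% for H2A and 26.999% for H2B, and again only the H2A groups overlapped. H4 made up a median 27.2% of the summed CPM in WT p38+/+ and 24.4% in AD p38+/+ libraries, against 17.5% in WT p38KO and 13.6% in AD p38KO libraries (15.9% without mice 1 and 4). The difference in the summed RNA was thus unevenly spread over the subfamilies, which were not tested against each other, and protein was not measured. Hist1h2ap, the most abundant member, had means of 74.2 (p38+/+) and 78.4 CPM (p38KO) in WT mice. In AD mice its means were 72.5 and 53.9 CPM. Without Hist1h2ap the ratio of p38KO to p38+/+ means of the sum went from 0.534 to 0.497 in AD and from 0.623 to 0.558 in WT mice.

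Which histone genes differed with p38α was asked first for the p38KO against p38+/+ difference averaged over WT and AD mice (the p38KO main effect), with limma on log2(CPM + 0.5) across all 13912 genes tested. At an adjusted p below 0.05, 11 genes (0.0791%) differed, of which 10 were lower (0.0719%). Of these 10, 6 were histone genes: H2ac6, which encodes an H2A, and the H4 genes H4f16, H4c14, Hist1h4n, H4c4 and H4c9. Among the 6, Hist1h4n was tested only because it was higher in p38+/+ mice. The genes called outside the family included Cx3cr1, Mid1 and Gm20628, which were lower, and Lgi4, which was higher. At an unadjusted p below 0.05, 17 histone genes were lower, against 3.19% of all genes, and 0 were higher, against 2.71%. The median log2 fold change of the 26 tested members was -0.93, that of all tested genes -0.0076 (-0.67 and 0.0071 without AD p38KO mice 1 and 4), and 22 of the 26 members and 51.6% of all genes were negative.

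H2ac6 (ENSMUSG00000069270, chr13:23681467-23683948, minus strand) had the lowest adjusted p of the family. Its level was 44.3, 31.0, 34.6 and 19.3 CPM in WT p38+/+ mice 1 to 4 and 12.6, 13.4, 7.54 and 7.40 CPM in WT p38KO mice 1 to 4. In AD p38+/+ mice 1 to 4 it was 26.8, 21.4, 19.3 and 19.8 CPM, and in AD p38KO mice 0.69, 4.77, 4.63 and 0.07 CPM. All p38KO values were below all p38+/+ values, and AD p38KO mouse 4 was below the floor of 3 reads. H2ac6 fell by 2.51 ± 0.38 on the log2 scale (SE, limma, adjusted p = 0.00976, lower in 8 of 8 p38KO libraries than in any p38+/+ library). It shares its minus-strand span with Gm24991 and lies opposite Gm44350, so its reads could partly be theirs. Its coding sequence differs from that of Hist1h2ap, the most abundant member, at only 5 positions, so its level is uncertain there too.

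H4f16 (ENSMUSG00000096010, chr6:136801553-136804415, minus strand) is the only member on chromosome 6. It was at 95.9, 43.4, 63.4 and 46.1 CPM (WT p38+/+), 30.3, 28.1, 25.8 and 10.96 CPM (WT p38KO), 47.0, 35.2, 41.4 and 43.0 CPM (AD p38+/+) and 3.08, 16.6, 11.8 and 7.51 CPM (AD p38KO) in mice 1 to 4. The p38KO and p38+/+ libraries did not overlap. H4f16 fell by 1.82 ± 0.28 on the log2 scale (SE, limma, adjusted p = 0.0113). Its coding sequence differs from that of its nearest member H4c4 at 40 positions.

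H4c4 (ENSMUSG00000061482, chr13:23581598-23582735, plus strand) was the most abundant H4 gene. It was at 79.9, 54.5, 95.6 and 45.5 CPM (WT p38+/+), 39.8, 37.1, 31.2 and 17.9 CPM (WT p38KO), 54.2, 46.6, 39.2 and 54.1 CPM (AD p38+/+) and 16.8, 26.02, 33.4 and 13.4 CPM (AD p38KO) in mice 1 to 4. Within WT mice and within AD mice the groups did not overlap, but WT p38KO mouse 1 was just above AD p38+/+ mouse 3. H4c4 fell by 1.14 ± 0.21 on the log2 scale (SE, limma, adjusted p = 0.0438), the smallest change of the 6, and the call held in 10 of 29 alternative settings.

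H4c9 (ENSMUSG00000060639, chr13:22040636-22041362, minus strand) was at 17.4, 8.49, 17.0 and 5.66 CPM (WT p38+/+), 4.93, 2.85, 6.24 and 1.72 CPM (WT p38KO), 11.2, 10.5, 8.93 and 9.89 CPM (AD p38+/+) and 1.504, 1.07, 4.43 and 0.068 CPM (AD p38KO) in mice 1 to 4. The AD groups did not overlap, and in WT mice p38KO mouse 3 was above p38+/+ mouse 4. H4c9 fell by 2.06 ± 0.37 on the log2 scale (SE, limma, adjusted p = 0.0438), a call that held in 12 of 29 alternative settings.

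H4c14 (ENSMUSG00000091405, chr3:96261682-96263311, minus strand) was at 13.6, 6.94, 8.35 and 3.34 CPM (WT p38+/+), 2.68, 1.44, 2.88 and 1.22 CPM (WT p38KO), 5.02, 5.31, 7.81 and 5.46 CPM (AD p38+/+) and 1.504, 1.59, 0.47 and 0 CPM (AD p38KO) in mice 1 to 4. All 8 p38KO values were below all 8 p38+/+ values. H4c14 fell by 2.03 ± 0.33 on the log2 scale (SE, limma, adjusted p = 0.0153). Hist1h4n (ENSMUSG00000069305, chr13:21831767-21832196, minus strand) was low in every library, at 0.48 to 1.97 CPM in WT p38+/+, 0 to 0.12 CPM in WT p38KO, 1.25 to 1.83 CPM in AD p38+/+ and 0 to 0.46 CPM in AD p38KO mice. It reached 1 CPM in no p38KO library, so it was tested only because it was higher in p38+/+ mice. Hist1h4n fell by 1.56 ± 0.26 on the log2 scale (SE, limma, adjusted p = 0.0192), and its coding sequence is identical to that of Hist1h4m, so its level is uncertain.

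These calls depended on the settings to different degrees. All 6 kept a negative sign under every alternative, but with 0.1 CPM as the pseudocount only H4f16 and Hist1h4n were called, and with the number of genes detected as a covariate, or in male mice only, none was. Calls over all genes also changed, from 11 in the main fit to 7 with that pseudocount, 2 with that covariate and 3 in male mice. Without AD p38KO mice 1 and 4, 3 were called (H2ac6, H4c14 and H4f16), of 8 genes called in all. On leaving out 1 mouse, 6 to 15 of all genes were called. Leaving out 1 mouse at a time gave 2 to 8 called histone genes, with 3 without WT p38+/+ mouse 1, WT p38+/+ mouse 3, WT p38KO mouse 4, AD p38+/+ mouse 1 or AD p38+/+ mouse 4 and 2 without AD p38+/+ mouse 3, while H2ac6 and H4f16 were called each time. On leaving out 1 mouse, H4c14 was called in 15 of the 16 fits, Hist1h4n in 9, H4c9 in 4 and H4c4 in 2. Over all alternatives H4f16 was called in 27 of 29, H2ac6 in 26 of 29, H4c14 in 25 of 29 and Hist1h4n in 18 of 28, so the calls of H4c4 and H4c9 were lost in most. Of the 13912 genes, 0.0431% had all 8 p38KO mice below all 8 p38+/+ mice, and 5 histone genes did: H2ac6, H3c7, H4c14, H4f16 and Hist1h4n. As Hist1h4n passed the filter only through p38+/+ mice, its place here is partly set by the filter.

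**Figure D2:**
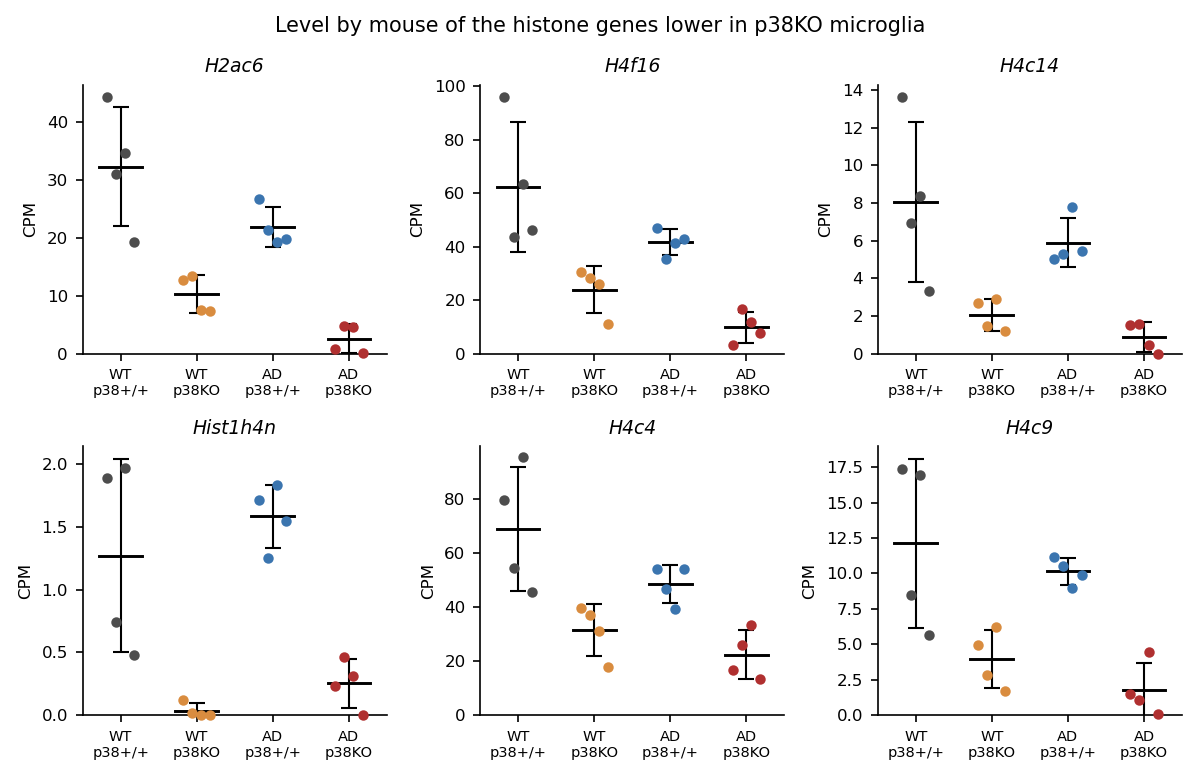
Level of each of the 6 histone genes called for the p38KO main effect, in CPM on linear axes; points are mice, and bars are group means ± SD (n = 4). For H2ac6 the highest p38KO mouse is at 13.4 CPM and the lowest p38+/+ mouse at 19.3 CPM, while for H4c4 and H4c9 the p38KO and p38+/+ mice overlap.

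None of the other tested H4 and H3 genes passed the adjusted threshold. H3c4 was at 3.59, 4.65, 4.63 and 1.85 CPM (WT p38+/+), 1.79, 2.15, 1.05 and 0.86 CPM (WT p38KO), 6.35, 3.73, 3.37 and 7.77 CPM (AD p38+/+) and 0.68, 0.62, 2.22 and 0 CPM (AD p38KO) in mice 1 to 4. Its log2 fold change was -1.67 ± 0.32 (SE, limma, adjusted p = 0.0700). H3c6, the most abundant H3 gene, had 4.996 to 12.04 CPM in WT p38+/+, 1.33 to 4.77 CPM in WT p38KO, 4.54 to 7.42 CPM in AD p38+/+ and 0.68 to 4.76 CPM in AD p38KO mice, and a log2 fold change of -1.42 ± 0.31. H3c7 had 1.46 to 3.36, 0.94 to 1.41, 1.85 to 2.47 and 0 to 1.06 CPM in the same order, and -1.03 ± 0.26. H3c1 averaged 0.81 CPM in WT p38+/+ mice and reached 1 CPM in only 2 libraries, both of that group, and was not tested. The H4 genes H4c3 and H4c8, both near 1 CPM, had log2 fold changes of -0.62 ± 0.35 and -0.29 ± 0.33, and that of H4c8 was 0.053 without AD p38KO mice 1 and 4.

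Among H2A genes, the levels of single genes diverged. H2ac18 was at 52.6, 39.9, 39.7 and 18.3 CPM (WT p38+/+), 23.8, 24.4, 19.0 and 9.004 CPM (WT p38KO), 50.7, 33.9, 33.9 and 35.2 CPM (AD p38+/+) and 13.7, 21.1, 16.2 and 17.0 CPM (AD p38KO) in mice 1 to 4, with no overlap in AD mice. Its log2 fold change was -1.06 ± 0.22 (SE, limma, adjusted p = 0.133). Its coding sequence is identical to that of H2ac19 and it overlaps Gm20634 on the same strand, so its level is uncertain. H2ac8 had a log2 fold change of -1.46 ± 0.33, H2ac7 of -0.82 ± 0.37 and H2ac12 of -0.69 ± 0.40, and none of them passed the threshold. Hist1h2ap was at 82.0, 58.3, 120 and 36.6 CPM (WT p38+/+), 83.9, 126, 60.4 and 43.2 CPM (WT p38KO), 111.8, 67.6, 47.4 and 63.1 CPM (AD p38+/+) and 49.0, 66.7, 61.8 and 38.03 CPM (AD p38KO) in mice 1 to 4. The 4 groups overlapped, and its log2 fold change was -0.14 ± 0.25. Its coding sequence is identical to that of Hist1h2ao (0.28 ± 0.32), so the split of reads between them is uncertain. H2ac20 was near 1.5 CPM, with a log2 fold change of 0.02 ± 0.32.

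Among H2B genes, H2bc6 was at 38.4, 23.0, 31.8 and 19.3 CPM (WT p38+/+), 19.4, 20.3, 18.6 and 15.4 CPM (WT p38KO), 25.0, 22.2, 23.8 and 21.7 CPM (AD p38+/+) and 11.1, 14.6, 19.2 and 18.1 CPM (AD p38KO) in mice 1 to 4, with a log2 fold change of -0.56 ± 0.15 (SE, limma, adjusted p = 0.458). H2bc8 had a log2 fold change of -1.27 ± 0.33 and H2bc21 of -0.55 ± 0.34. H2bc4 was at 19.4, 8.88, 16.2 and 9.66 CPM (WT p38+/+), 9.23, 32.6, 8.78 and 12.7 CPM (WT p38KO), 24.8, 10.2, 11.002 and 10.4 CPM (AD p38+/+) and 22.14, 9.37, 11.9 and 11.1 CPM (AD p38KO) in mice 1 to 4. Its groups overlapped, its log2 fold change was 0.03 ± 0.29, and the sign of this value turned under several settings.

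The H1 genes encode the linker histones. H1f4, the most abundant, was at 107.8, 52.1, 82.1 and 41.0 CPM (WT p38+/+), 60.4, 82.1, 34.0 and 36.3 CPM (WT p38KO), 73.5, 52.3, 51.7 and 60.6 CPM (AD p38+/+) and 32.9, 41.3, 50.5 and 28.5 CPM (AD p38KO) in mice 1 to 4. The AD groups did not overlap and the WT groups did, and its log2 fold change was -0.53 ± 0.21. H1f2 and H1f3 had log2 fold changes of -0.45 ± 0.19 and -1.25 ± 0.47. H1f5, at 0 to 3.25 CPM, had 0.44 ± 0.42, and H1f1, with a mean of 0.25 CPM, was not tested. None of the 4 tested H1 genes passed the threshold.

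Tested apart, the difference was called in AD but not in WT mice, although the fold changes pointed the same way. In AD p38KO against AD p38+/+ microglia, 7 genes were called in all (0.0503%), 6 of them lower (0.0431%), and 2 of the 6 were histone genes. H2ac6 fell by 3.42 ± 0.53 on the log2 scale (SE, limma, adjusted p = 0.0196) and H4f16 by 2.25 ± 0.40 (SE, limma, adjusted p = 0.0497). Neither was called without AD p38KO mouse 1 or without any 1 of the 4 AD p38+/+ mice, and 1 histone gene, H2ac6, was called on leaving out any 1 of the 4 WT p38+/+ mice, 1 of WT p38KO mice 1 to 3, AD p38KO mouse 4, or both AD p38KO mice 1 and 4. Neither was called with a pseudocount of 0.1 CPM, with only the groups compared in the fit, with genes detected as a covariate or in male mice only. Calls over all genes, 7 in the main fit, numbered 6, 4, 1 and 2 in these settings. Over the 30 alternatives the call held in 21 for H2ac6 and in 5 for H4f16. At an unadjusted p below 0.05, 16 histone genes were lower, against 4.66% of all genes, and 23 were negative, against 53.8%. The AD groups did not overlap, with p38KO below, for 11 of the 26 tested members and for 2.02% of all genes: H1f4, H2ac6, H2ac18, H2bc6, H3c4, H3c7, H4c4, H4c9, H4c14, H4f16 and Hist1h4n. With AD p38KO mice 2 and 3 alone against the 4 AD p38+/+ mice it was 14 members, against 7.89% of all genes. Both counts include Hist1h4n, which passed the filter only through p38+/+ mice.

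In WT p38KO against WT p38+/+ microglia, limma called 1 gene in all (0.00719%), Cx3cr1, and 0 histone genes. At an unadjusted p below 0.05, 13 histone genes were lower, against 1.56% of all genes, and 21 were negative, against 47%. The log2 fold changes of H2ac6, H4f16, H4c14, Hist1h4n, H4c4 and H4c9 were -1.60 ± 0.53, -1.39 ± 0.40, -1.66 ± 0.46, -1.62 ± 0.37, -1.12 ± 0.29 and -1.50 ± 0.52. The WT groups did not overlap, with p38KO below, for 8 members, against 1.32% of all genes: H2ac6, H2ac8, H3c6, H3c7, H4c4, H4c14, H4f16 and Hist1h4n. This count too includes Hist1h4n, which passed the filter only through p38+/+ mice. H2ac6 was called in WT mice when AD p38KO mice 1 and 4 were left out, which changes the shared estimate of the spread.

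Set side by side, 20 of the 26 tested members had negative fold changes in both WT and AD mice, 3 only in AD, 1 only in WT, and 2 were positive in both. The median log2 fold change was -1.04 in AD mice (all genes -0.023; -0.66 and 0.0034 without AD p38KO mice 1 and 4) and -0.81 in WT mice (all genes 0.016). The fold change was lower in AD than in WT mice for 20 members, and the difference between AD and WT mice was tested as the interaction. Limma called 0 of 13912 genes for it (0%), and at an unadjusted p below 0.05 it gave 546 genes (3.92%), of which 1 was a histone gene, H2ac6 (-1.82 ± 0.75). That the loss differs between AD and WT mice was therefore not shown for any member.

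**Figure D3:**
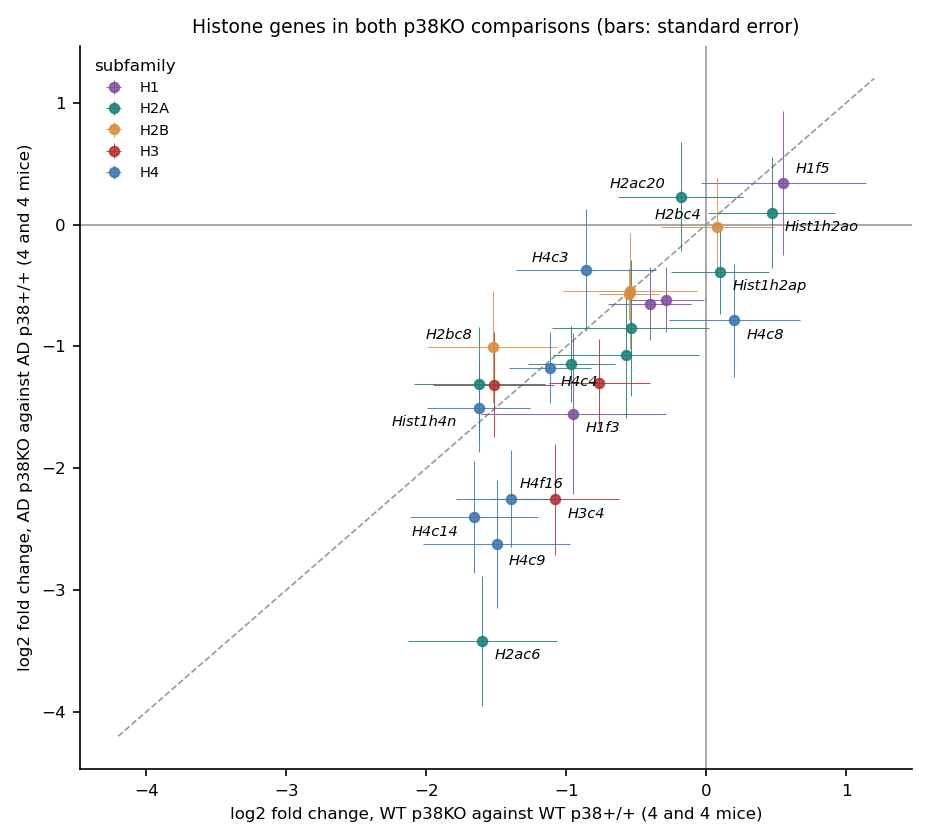
Log2 fold change, p38KO against p38+/+, of the 26 tested histone genes in WT mice (x axis) and in AD mice (y axis), each from its own 4 against 4 mice, with colours for the subfamilies, bars of 1 SE and a dashed line of equal values. Most points, 20 of 26, lie where both values are negative, with H2ac6 lowest in AD mice at -3.42.

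The APP/PS1 transgene was not followed by a called difference in any member. In AD p38+/+ against WT p38+/+ microglia, limma called 50 genes (0.359%) and 0 histone genes, and at an unadjusted p below 0.05 the only histone gene was H4c3 (-1.22, 2.42% of all genes lower). The summed CPM was 16.3% lower in AD p38+/+ mice, well within the spread of the groups, and 16 of the 26 members were negative, against 50.9% of all genes, with a median of -0.10. In AD p38KO against WT p38KO microglia, 45 genes (0.323%) and 0 histone genes were called, with 4 at an unadjusted p below 0.05 (H2ac6, H4c14, H4c9 and H4f16, 5.8% of all genes lower). The summed CPM was 28.3% lower, 22 members were negative, against 56.2% of all genes, and the median was -0.44 (all genes -0.042). In male mice only, the AD p38KO mean of the summed CPM was 1.04 times the WT p38KO mean, so its direction turned. Averaged over both p38α genotypes, the transgene gave 143 called genes (1.03%) and 0 histone genes, with 4 at an unadjusted p below 0.05 (H2ac6, H4c3, H4c4 and H4f16, 5.76% of all genes lower), 22 negative (55.7% of all genes) and a median of -0.27 (all genes -0.030). In this and the preceding comparison, 1 histone gene was called with quantile scaling, and 1 on leaving out AD p38KO mouse 2 or mouse 3.

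The 16 libraries placed the members' extremes unevenly. The highest value of a tested member was in a WT p38+/+ library for 20 of the 26 genes, 14 of them in mouse 1 and 6 in mouse 3. The lowest was in an AD p38KO library for 18 genes, 12 of them in mouse 4, 5 in mouse 1 and 1 in mouse 2. WT p38+/+ mouse 1 was female, as was mouse 1 of every group and WT p38KO mouse 2. The median number of the 55 members at or above the floor was 39.5 with p38α intact and 35.5 in the knockout for WT mice, and 38 and 32.5 for AD mice, with 19 in the lowest AD p38KO library. Over all genes, AD p38KO mice 4 and 1 also had the fewest at or above the floor, 14320 and 14915 (median of the 16 libraries 15730.5). Extremes were not counted over all tested genes, so those of the members cannot be called particular to histone genes.

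H2A and H2B genes often stand back to back, transcribed away from each other from 1 shared promoter region, and 9 such pairs of members had starts 176 to 302 bases apart. In the pair H2ac6 and H2bc4, with starts 251 bases apart, the fold changes of the members diverged: H2ac6 fell by 2.51 and H2bc4 had 0.03 ± 0.29 on the log2 scale. In the pair H2ac8 and H2bc8, 176 bases apart, they were near each other (-1.46 ± 0.33 and -1.27 ± 0.33). H2ac20 and H2bc21, 239 bases apart, had 0.02 ± 0.32 and -0.55 ± 0.34. In the other 6 pairs at least 1 member was not tested. The annotated transcript of H2bc4 has 2 exons and no stem-loop was found after its stop codon.

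**Figure D4:**
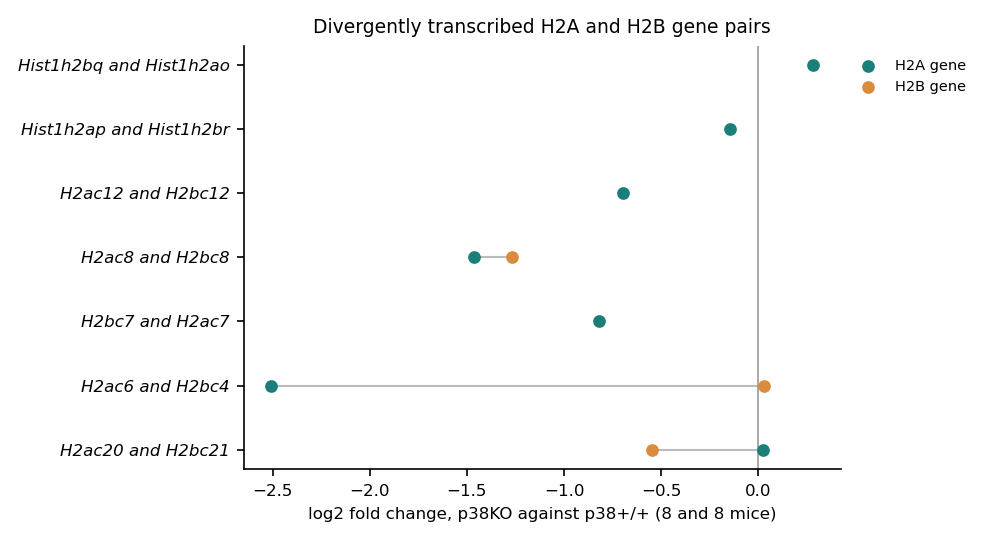
Log2 fold change for the p38KO main effect of the tested members of divergent H2A and H2B pairs, 1 pair a line, with the H2A gene in green and the H2B gene in orange; a pair with a single point has 1 tested member. H2ac6 at -2.51 and H2bc4 at 0.03 lie farthest apart, and H2ac8 at -1.46 and H2bc8 at -1.27 lie close together.

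Transcript values split H2bc6 into parts that did not move together. In the deposited transcript table, 34322 transcripts were tested, 57 (0.166%) were called for the p38KO main effect, and 7 of these belonged to histone genes: H2ac6, H2bc6, H4c14, H4c4, H4c9, H4f16 and Hist1h4n. The gene values of Hist1h4n reached 1 CPM in no p38KO library. A coding H2bc6 transcript of 2480 nucleotides was at 14.001, 9.40, 8.64 and 4.49 CPM (WT p38+/+), 3.16, 5.82, 0.98 and 1.30 CPM (WT p38KO), 10.3, 7.29, 8.56 and 4.78 CPM (AD p38+/+) and 0.0023, 1.74, 1.15 and 0.45 CPM (AD p38KO) in mice 1 to 4. It fell by 2.23 ± 0.36 on the log2 scale (SE, limma, adjusted p = 0.0177). A noncoding transcript of the same gene, 2099 nucleotides in 1 exon and overlapping the 3′ end of H1f4 on the same strand, was at 8.68 to 21.2 CPM over the 16 libraries, with a log2 fold change of -0.04 ± 0.18 (SE, limma, adjusted p = 0.985). Its reads could partly be those of H1f4. The level of H2bc6 in the gene table is the sum of these and of another coding transcript, of 2506 nucleotides (-1.09 ± 0.36).

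The annotated end of a gene's transcript varied widely. Past the stem-loop, the annotation ran on for 2445 bases in H4f16, 2010 in H2ac6, 1257 in H4c14, 1153 in H1f4, 770 in H4c4 and 330 in H4c9, but for 31 in Hist1h4n and 3 in Hist1h2ap. In a grouping chosen after the values were seen, 9 of 10 genes with over 500 bases past the stem-loop were tested, all 9 were negative, 4 were called and the median log2 fold change was -1.25. For the same p38KO main effect, 51.6% of all tested genes were negative and 0.0719% were called lower. Of 26 genes with a stem-loop and at most 500 bases past it, 13 were tested, 11 were negative, 2 were called, and the median was -1.03. The 2 include Hist1h4n, which passed the filter only through p38+/+ mice. Of 19 genes with no stem-loop found, 4 were tested (H1f5, H2ac12, H2bc4 and H2bc21), 0 were called by limma, 2 were negative and the median was -0.26. The transcripts of H1f5 and H2ac12 are annotated to only 0 and 2 bases past the stop codon. A stem-loop could therefore not have been found in these genes, whether or not they hold one. How much of each level came from RNA with a poly(A) tail was not tested, and whether the library kit selected such RNA is not given in the sources used here.

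By position, the members lay in 46 genes on chromosome 13, 8 on chromosome 3 and 1 on chromosome 6, and called genes came from all 3. Over all tested genes, 51.6% were negative and 0.0719% were called lower for the p38KO main effect. In the largest cluster, chr13:23531050-23764406 with 26 members, 14 of the 15 tested were negative, the median was -1.03, and H4c4 and H2ac6 were called. In chr3:96220361-96270132 with 8 members, 3 of 4 tested were negative, the median was -0.80 and H4c14 was called. In chr13:21715763-21837530 with 15 members, 2 of 4 tested were negative, the median was 0.07, and Hist1h4n was called. As Hist1h4n passed the filter only through p38+/+ mice, its call there is partly set by the filter. In chr13:22035164-22043676 with 4 members, both tested genes were negative and H4c9 was called. Among genes of other kinds inside these spans, Gm20628, an antisense gene that overlaps the members H3c13 and H2bc18 on chromosome 3, fell by 1.94 ± 0.28 on the log2 scale (SE, limma, adjusted p = 0.00858). It was at 7.41, 6.06, 6.85 and 1.93 CPM (WT p38+/+), 2.51, 1.19, 1.63 and 0.81 CPM (WT p38KO), 5.21, 3.31, 3.09 and 5.01 CPM (AD p38+/+) and 0.21, 0.64, 0.65 and 0.16 CPM (AD p38KO) in mice 1 to 4. As no strand setting is given in the sources used here, its reads and those of the 2 genes it overlaps cannot be told apart. Of the 5 other tested genes of other kinds in these spans, none passed (limma). On chromosome 3, Gm20632 had a log2 fold change of -1.13, Gm20634 of -1.001, Gm20633 of -0.97 and Gm38227 of 0.03. Hfe, an iron-regulating gene within the chromosome 13 cluster, had a log2 fold change of 0.03.

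Other genes of histone biology did not move with the replication-dependent ones at the adjusted threshold. Of the histone genes outside the rule, most of which are made outside S phase and carry a poly(A) tail, 10 were tested, 0 were called by limma for the p38KO main effect, 5 were negative and the median was -0.01. H3f3a and H3f3b, which encode the variant H3.3, had log2 fold changes of 0.22 and -0.09, H2az1 0.03, H2ax -0.17 and the centromeric Cenpa -0.08. At an unadjusted p below 0.05, 1 of the 10 was higher and 0 lower. For this and the next lists, the shares of all tested genes were 2.71% higher and 3.19% lower at that threshold, and 51.6% negative. Of 33 genes of histone transcription and mRNA processing, 0 were called by limma (2 higher and 1 lower at an unadjusted p below 0.05), 16 were negative and the median was 0.003. Slbp, which binds the stem-loop, had 0.02, with means of 72.7 CPM (p38+/+) and 84.5 CPM (p38KO) in WT mice and of 87.3 and 77.3 CPM in AD mice, and Npat, the S-phase coactivator, had -0.08. The RNA-processing genes Wdr33 and Snrpb had -0.07 and 0.14, the cleavage factor genes Cstf2 and Cstf2t -0.43 and -0.08, and Snrpf 0.38. Of 26 chaperones, which hand histones to DNA, 0 were called by limma (2 higher and 0 lower at an unadjusted p below 0.05), 10 were negative and the median was 0.025. Supt16, a subunit of the FACT complex, had 0.56 and Ubn2, of the HIRA complex that deposits H3.3, had 0.47, while Ubn1, Anp32b, Rbbp4 and Spty2d1 lay between -0.08 and 0.03.

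Genes of S phase and proliferation were examined as a list of 39, all tested. Limma called 0 of them for the p38KO main effect, and by the unadjusted p below 0.05, 4 were lower (3.19% of all genes) and 1 was higher (2.71%). Of the 39, 26 were negative, against 51.6% of all genes, and the median was -0.20. In AD p38KO against AD p38+/+ mice 34 of the 39 were negative, against 53.8% of all genes, with a median of -0.48. There 0 were called by limma and 4 were lower at an unadjusted p below 0.05, against 4.66% of all genes. In WT mice 17 were negative, against 47% of all genes, and the median was 0.05. The summed CPM of the list was 848 to 924 in AD p38+/+ and 722 to 862 in AD p38KO libraries, and 694 to 821 in WT p38+/+ and 688 to 815 in WT p38KO libraries. Mki67, a marker of cycling cells, was at 5.0002, 2.19, 2.51 and 0.71 CPM (WT p38+/+), 2.77, 3.61, 0.43 and 3.51 CPM (WT p38KO), 4.08, 4.14, 1.55 and 9.93 CPM (AD p38+/+) and 1.05, 3.66, 0.23 and 0.95 CPM (AD p38KO) in mice 1 to 4. Its groups overlapped and its log2 fold change was -0.77. Cdc6, which licenses replication origins, had -1.25 ± 0.36 (SE, limma, adjusted p = 0.573) with group means of at most 1.75 CPM, and Birc5, a mitotic gene, had -0.82 ± 0.26 (SE, limma, adjusted p = 0.651). Uhrf1 and Stmn1 had 0.34 and 0.12, and the most abundant genes of the list, Tubb5 and Mcm3, had -0.01 and -0.12. The part of cycling cells in the histone differences was not tested. Of 6 other tested RNAs, listed as lacking a poly(A) tail in at least 1 form, 0 were called by limma (1 higher at an unadjusted p below 0.05). Their median was 0.23, with Rn7s2, an RNA of the signal recognition particle, at 0.66 and Rn7s1 and Rn7s6 at 0.33 and 0.32. Malat1 was at 0.15, Rn7sk at 0.04 and Neat1 at -0.13. Whether every form of these RNAs lacks the tail was not tested.

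**Figure D5:**
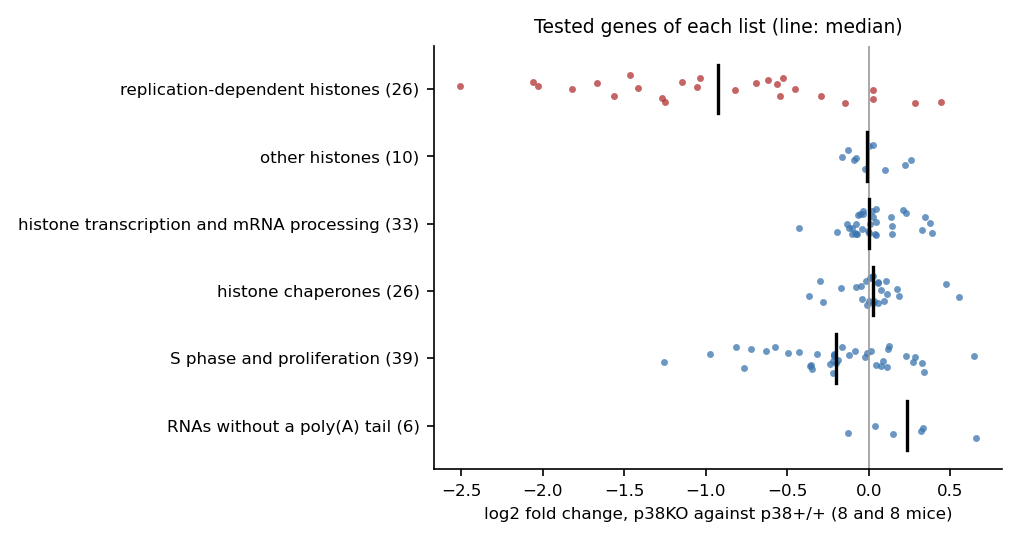
Log2 fold change for the p38KO main effect of each tested gene in the replication-dependent histones and in 5 lists of related genes, with a line at each median. The replication-dependent histones centre on -0.93, the S phase list on -0.20 and the other 4 lists between -0.01 and 0.23.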

How the data were processed

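RNA from microglia of 16 mice (RIN 6.7 to 9.1) was sequenced, and per the study's methods and the submitters' processing notes the authors aligned reads to mm10 with STAR and quantified them in Partek 10.0.22.0828. The deposited gene and transcript values are CPM (read counts scaled to the library's assigned reads), made by the authors with 0.0001 added. Of the values under 50 reads, 76.0% were whole reads (tolerance 0.05) for other genes and 34.3% for histone genes, so whole reads could not be recovered and no test on counts was made. The 13912 of 20267 genes that reached 1 CPM in 4 or more libraries were tested on log2(CPM + 0.5), which understates changes of low genes, with limma 3.58.1 (trend, R 4.3.3) in 1 fit of all 16 libraries. The 7 comparisons were 4 between groups, the 2 main effects and the interaction; tests were two-sided, with Benjamini-Hochberg adjustment over all genes and calls at an adjusted p below 0.05. The fit was tested on simulated data. Tables were handled with Python 3.11.15 (pandas 2.3.3). Members and lists were chosen with earlier results of these data known. The text names every called member, up to 4 members of highest mean CPM and up to 2 further members of smallest p in each subfamily, and genes of the related lists chosen by p or level. Other normalizations, filters, pseudocounts, covariates and sets of mice were tried as alternatives. Leaving out AD p38KO mice 1 and 4 together, the covariate of genes detected and the use of male mice only were chosen after seeing the data. Depth limits apply to counting error only.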

Additional observations from a re-analysis of the deposited data

Results flagged for a closer look

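In 248 groups of 4 mice (the histone sums, the named members and the related genes named), 16 held a mouse far from the other 3 by Dixon's test, where chance flags about 1 in 20 groups. Among histone results, AD p38+/+ mouse 1 was high in 4 of them: summed H2B at 75.4 CPM against 44.5 to 47.3 CPM in the other 3 mice, H2ac7 at 61.1 CPM against 33.8 to 34.5 CPM, H2ac18 at 50.7 CPM against 33.9 to 35.2 CPM, and H2bc4 at 24.8 CPM against 10.2 to 11.002 CPM. H2bc4 was also high in WT p38KO mouse 2, at 32.6 CPM against 8.78 to 12.7 CPM. H4c14 was at 7.81 CPM in AD p38+/+ mouse 3 against 5.02 to 5.46 CPM. Hist1h4n was at 0.123 CPM in WT p38KO mouse 1 against 0 to 0.0122 CPM, all below the floor of 3 reads.

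Among related genes, Cenpa was at 14.8 CPM in AD p38KO mouse 4, against 2.41 to 4.06 CPM in the other 3. Cdc6, a replication licensing gene, was at 1.22 CPM in WT p38KO mouse 4 and at 0.0677 CPM in AD p38KO mouse 4, and at 0 in the other 3 mice of each group. Wdr33 was at 75.6 CPM in AD p38KO mouse 3 against 79.8 to 80.3 CPM, Snrpf at 9.04 CPM in WT p38+/+ mouse 1 against 5.06 to 5.63 CPM, and Ubn1 at 67.0 CPM in WT p38KO mouse 1 against 50.6 to 53.3 CPM. Rbbp4 was at 187 CPM in WT p38+/+ mouse 2 against 235 to 242 CPM. Of the RNAs without a poly(A) tail, Rn7s6 was at 0.633 CPM in AD p38+/+ mouse 2 against 1.52 to 1.65 CPM, and Rn7s1 at 102 CPM in AD p38KO mouse 2 against 43.0 to 50.6 CPM.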

How the results depend on the processing

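For the p38KO main effect, 6 histone genes were called. The count was 2 with a pseudocount of 0.1 CPM, 3 without AD p38KO mice 1 and 4 together, and 0 with genes detected as a covariate or in male mice only, and leaving out 1 mouse gave 2 to 8. Calls over all genes, 11 in the main fit, numbered 7, 8, 2 and 3 in these settings and 6 to 15 on leaving out 1 mouse. For AD p38KO against AD p38+/+, where 2 were called, the count was 0 with a pseudocount of 0.1 CPM, with only the groups compared, with genes detected as a covariate or in male mice only, and 1 with a pseudocount of 1 CPM, no filter, array weights, sex or the S0 label as a covariate, the transcript table, or without AD p38KO mice 1 and 4 together. Leaving out 1 mouse gave 0 to 3. Over all genes 7 were called in the main fit of this comparison and 6 with a pseudocount of 0.1 CPM. There were 4 with only the groups compared, 1 with genes detected and 2 in male mice. For WT p38KO against WT p38+/+ the count was 1, against 0, without AD p38KO mice 1 and 4 together. For AD p38KO against WT p38KO and for the APP/PS1 main effect it was 1, against 0, with quantile scaling, and 0 to 1 on leaving out 1 mouse (1 without AD p38KO mouse 2 or 3). The ratio of summed CPM, AD p38KO to WT p38KO, was 1.04 in male mice only, against 0.717. The cause was not tested, except that fewer mice enter some fits. The calls of the p38KO main effect gave adjusted p over the alternatives of 0.000403 to 0.501 for H2ac6, 0.00396 to 0.534 for H4f16, 0.00522 to 0.603 for H4c14, 0.0101 to 0.603 for Hist1h4n, 0.0140 to 0.603 for H4c4 and 0.00758 to 0.603 for H4c9, all with a negative sign.

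Fold changes that turned in sign were of genes that were not called: H2bc4 (0.03) had -0.047 with array weights, -0.084 with sex as a covariate, -0.048 with genes detected, -0.11 without AD p38KO mice 1 and 4, -0.026 in male mice and -0.18 to 0.18 on leaving out 1 mouse. H1f5 (0.44) had -0.036 without AD p38KO mice 1 and 4 and -0.10 with genes detected, H4c8 (-0.29) had 0.053 and 0.18 in the same settings, Hist1h2ap (-0.14) had 0.077 with genes detected, and Hist1h2ao (0.28) had -0.047 in male mice. Same-numbered mice were not treated as pairs. Over 24 such pairs the correlation of deviations was -0.131 to 0.184 and 2 pairs were over 0.1. Over 72 differently numbered pairs it was -0.148 to 0.212. The number is tied to sex, as mouse 1 of every group was female. With the replicate block the count was 6 for the p38KO main effect and 3 (H2ac6, H4c14 and H4c9) for AD p38KO against AD p38+/+. Members near 1 CPM rest on few reads.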
